A study of Mus musculus with 248 samples.

Results

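The genes described here are those that the authors listed as shared between 2 comparisons of hematopoietic stem cells (HSCs). One comparison set HSCs of low mitochondrial membrane potential (MMP-low) against HSCs of high potential (MMP-high), and the other set HSCs called dHSC against HSCs called aHSC. In this field these abbreviations stand for dormant and active HSCs. The deposited tables do not spell them out, and no source used here says where the dHSC and aHSC gene lists come from. There were 154 shared genes, 99 in the column for MMP-low with dHSC and 55 in the column for MMP-high with aHSC. All 154 were found among the 1868 genes of the authors' deposited table of the MMP comparison, each on the side its column names. The 99 genes were 10.4% of the 949 genes listed as higher in MMP-low, and the 55 genes were 5.98% of the 919 genes listed as higher in MMP-high.

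Both MMP groups came from C57Bl6 mice and were sorted by flow cytometry as lineage-negative, Sca1-positive, cKit-positive, CD150-positive and CD48-negative cells, then by membrane potential. No genotype, age or treatment is given for the mice. Each library held the RNA of a single cell captured on a Fluidigm C1 chip, with 122 MMP-low and 126 MMP-high libraries in the series. The series' design text states that 224 cells were kept after filtering, and the percentages of cells below are not known to rest on all libraries. The labels name no animal, so each group counted as 1 sample and the values below are not checked by replicates. The files used give, per gene, the authors' share of cells with the gene detected, an average log fold change and a p-value, and no values per cell.

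HSCs renew themselves and replenish all blood lineages. Most of them rest outside the cell cycle in adult marrow, and dormant HSCs are those that divide most rarely and keep the greatest capacity for long-term repopulation. Active HSCs have entered the cycle, and they make more RNA, ribosomes and mitochondrial energy. Membrane potential is the voltage that the respiratory chain builds up across the inner membrane of mitochondria, and low potential has been used to isolate quiescent HSCs.

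The shared genes were selected on the MMP comparison itself, by being higher in 1 group at a stated adjusted p under 0.05, so the MMP fold changes, detection and p-values describe these genes and give no independent support. The fold change runs MMP-low over MMP-high on a log scale whose base is not stated, so a positive value is higher in MMP-low. The authors' deposited table lists genes from an absolute log fold of 0.25 upward. An adjusted p here is the authors', from a model of single cells.

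Genes of neutrophil granules and myeloid receptors made up the most numerous function groups shared by MMP-low and dHSC, and those of DNA replication, ribosome production and chromatin were prominent among the genes shared by MMP-high and aHSC. By the authors' deposited table, the median of the 99 genes was detection in 81% of MMP-low against 40.3% of MMP-high cells, with a median log fold of 0.52. All 949 genes listed as higher in MMP-low had medians of 84.8% and 70.6%, and a median log fold of 0.36. The median of the 55 genes was detection in 59% of MMP-low against 97.5% of MMP-high cells, per the authors' deposited table, with a median log fold of -0.38. All 919 genes listed as higher in MMP-high had medians of 75.2% and 96.6%, and a median log fold of -0.33. As background, of the 16203 genes tested 5.86% were listed on the MMP-low side and 5.67% on the MMP-high side. With an adjusted p under 0.05, these shares were 3.33% and 3.69%. The columns were drawn from those calls, so nothing is read from the shared genes' count against them.

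In the authors' deposited table, 10 of the 99 MMP-low genes were detected in 0% of MMP-high cells, and 15 in at most 1%. None of the 55 MMP-high genes was at 0% in MMP-low cells, the lowest being Ttf2, a transcription termination factor, at 6.70%. A difference of at least 50 percentage points was found for 40 of the 99 and 19 of the 55. At the other end, 7 of the 99 and 10 of the 55 were detected in 100% of the cells of both groups, so that they differed in level alone. Over the whole sides of the authors' deposited table, the contrast ran the same way for genes at 0% and for genes at 100% in both. As a share of each side, it ran the other way for differences of at least 50 percentage points. Of all genes listed, 39 of 949 on the MMP-low side and 1 of 919 on the MMP-high side were at 0% in the opposite group, 167 and 191 differed by at least 50 percentage points, and 97 and 159 were at 100% in both. Among the 5624 genes that the authors' deposited table names as highly variable were 75 of the 99 MMP-low genes (75.8%) and 18 of the 55 MMP-high genes (32.7%). Of all listed genes, 69.3% on the MMP-low side and 33.6% on the MMP-high side were in that table.

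**Figure D1:**
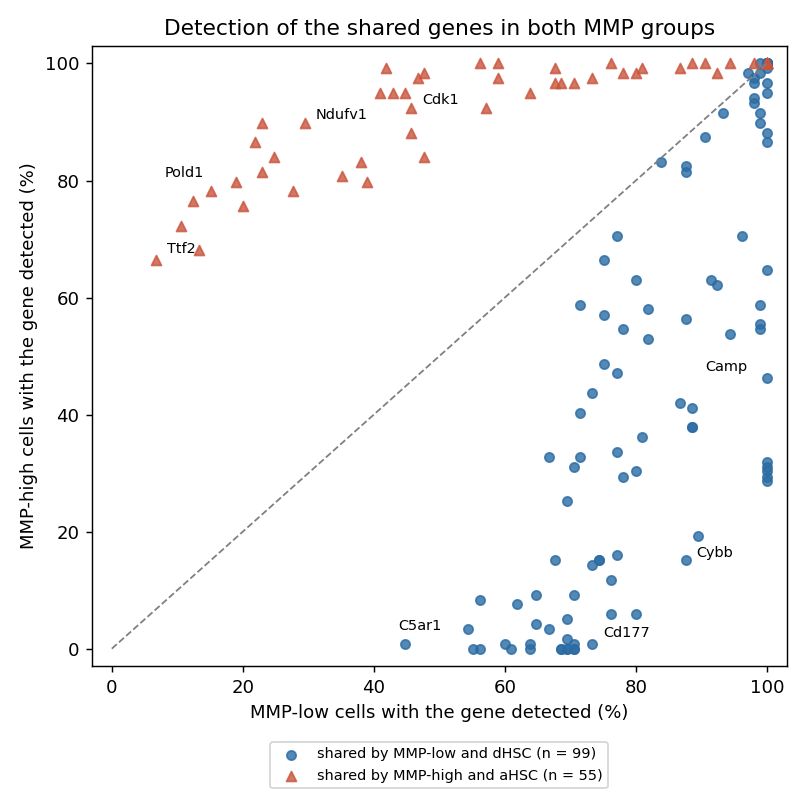
Share of MMP-low cells (horizontal axis, %) and of MMP-high cells (vertical axis, %) in which each of the 154 shared genes was detected, from the authors' deposited table. Circles are the 99 genes shared by MMP-low and dHSC, triangles the 55 shared by MMP-high and aHSC, and the dashed line marks equal detection. Of the circles, 10 lie at 0% of MMP-high cells, while no triangle lies at 0% of MMP-low cells.

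The number of genes detected per library moved with the MMP groups. Its median was 2316.5 in MMP-low and 3795.5 in MMP-high libraries, with total reads of 678723 to 5074155 and 949570 to 4308287. Libraries numbered up to 85 in their titles had medians of 2500 genes in MMP-low and 4080 in MMP-high, and those above 85 had 2083 and 1905, so the order turned. Up to 85, median mapped reads were 472174 in MMP-low and 1035705 in MMP-high, the aligned share was 31.2% and 53.6%, and the exonic share was 24.5% and 58.5%. Above 85, mapped reads were 564476 and 454512, the aligned share was 29.4% and 28.3%, and the exonic share was 14.6% and 13.7%. No source used here says which libraries were the 224 kept. Detection in more MMP-high cells runs the same way as the number of genes over all libraries, and detection in more MMP-low cells runs the other way. Genes of the Y chromosome also moved with the groups and were picked out after their values had been seen. Eif2s3y was detected in 89.5% of MMP-low against 12.6% of MMP-high cells, per the authors' deposited table, Ddx3y in 70.5% and 8.4%, and Uty in 65.7% and 5%, while the female-specific RNA Xist was detected in 96.2% and 100%. At these shares, most MMP-low cells must have counted as detecting both Xist and Eif2s3y. The rule for detection is not stated, so a detected share is not known to mean RNA present in each cell. The labels give no sex. The parts of library quality and of sex in the detection shares were not tested.

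Of 9 genes taken as HSC markers or, for Cd48 and Flt3, as genes that long-term HSCs lack, 2 were shared genes, both on the MMP-low side with dHSC. Ly6a encodes Sca1, the surface antigen used in the sort, and was detected in 100% of both groups with a log fold of 0.83 in the authors' deposited table. Procr encodes the protein C receptor EPCR, a marker of long-term HSCs, and was detected in 99% of MMP-low against 91.6% of MMP-high cells with a log fold of 0.71. Slamf1, which encodes CD150, and Fgd5 and Mecom, further HSC markers, were listed as higher in MMP-low without being shared. Slamf1 was detected in 76.2% of MMP-low against 28.6% of MMP-high cells, per the authors' deposited table, though both groups were sorted as CD150-positive. Fgd5 was at 88.6% and 41.2%, and Mecom at 99% and 93.3%. Hlf, an HSC transcription factor, was listed as higher in MMP-high at -0.26, with 100% detection in both groups. Kit, Cd48 and Flt3 were not in the authors' deposited MMP table, which lists differing genes only and so gives no level for them. Flt3 was, however, listed as higher in E, 1 of the authors' 5 clusters of these cells described below.

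The function groups used below were made by hand from textbook roles after the values had been seen, and they carry no test. On the side of MMP-low and dHSC, 13 genes encode proteins of neutrophil granules or antimicrobial defence. Their median log fold was 0.95 in the authors' deposited table, the highest of the 10 MMP-low groups. The median detection of the group was 99% of MMP-low against 28.6% of MMP-high cells.

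Camp, which encodes the antimicrobial peptide cathelicidin, led all shared genes, with a log fold of 1.83 and detection in 100% of MMP-low against 46.2% of MMP-high cells, per the authors' deposited table. Ngp, a neutrophilic granule protein, followed at 1.81, detected in 100% and 31.9%. Lyz2, the lysozyme that cleaves bacterial cell walls, stood at 1.69 while being detected in 100% of both groups. These 3 genes show both patterns of the group, a gene detected in all cells at a different level and genes detected in fewer MMP-high cells. Lcn2, which binds bacterial iron carriers, was detected in 100% of MMP-low against 30.3% of MMP-high cells, per the authors' deposited table, at a log fold of 1.34. Wfdc21, a small secreted protein, was at 100% and 29.4% with 1.25. Hp, the hemoglobin scavenger haptoglobin, was at 100% and 28.6% with 1.19. These 3 were thus found in every MMP-low cell that the authors counted and in at most 30.3% of the MMP-high cells.

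Some other granule genes were detected in almost no MMP-high cells. Lgals3, the lectin galectin-3, was detected in 70.5% of MMP-low against 0% of MMP-high cells by the authors' deposited table, with a log fold of 0.95. Cd177, a surface glycoprotein of neutrophils, was at 73.3% and 0.8% with 0.69. Mmp9 was at 55.2% and 0%, and its log fold of 0.26 was among the smallest listed. Mmp9 is a secreted metalloproteinase, and its symbol has nothing to do with membrane potential. Slpi, an inhibitor of granule proteases, was at 89.5% and 19.3% with a log fold of 0.43. The remaining granule genes, Plbd1, Pglyrp1 and Mcemp1, had log folds of 0.81, 0.67 and 0.46 in the authors' deposited table.

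A further 13 genes encode myeloid receptors, adaptors and effectors, with a median log fold of 0.42 and median detection in 77.1% of MMP-low against 15.1% of MMP-high cells. Tyrobp and Fcer1g encode adaptors that pass on signals from activating receptors. Tyrobp was detected in 99% of MMP-low against 55.5% of MMP-high cells, per the authors' deposited table, at a log fold of 0.97, and Fcer1g in 100% and 95%, at 0.71. Cybb, the catalytic subunit of the phagocyte NADPH oxidase, was at 87.6% and 15.1% with 0.52. These 3 genes were found in most cells of MMP-low, while Cybb was rare in MMP-high. Ccl6, a chemokine, was at 68.6% and 0%, and F13a1, the A subunit of coagulation factor XIII that monocytes carry, was at 63.8% and 0%. C5ar1, the receptor for complement fragment C5a, lay nearest the edge of the authors' deposited table, with a log fold of 0.25 and detection in 44.8% of MMP-low against 0.8% of MMP-high cells. Clec12a, Pirb, Cd200r1, Igsf6, Lst1, Ms4a6c and Myo1f, which encode receptors, membrane proteins and a motor protein of myeloid cells, completed the group, with log folds between 0.29 and 0.65.

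The authors' own term for genes higher in MMP-low, neutrophil degranulation, held 19 of the 99 shared genes (19.2%) and 65 of the 949 listed genes (6.85%) in the authors' deposited table. Its genes are drawn from the MMP-low side, so none of the 55 genes shared by MMP-high and aHSC could be among them. The 19 genes included Camp, Lcn2, Lgals3, Cd177, Cybb, C5ar1 and the cathepsins Ctsa, Ctsh and Ctss. The list of 34 markers of granulocytes, monocytes and macrophages shares genes with the degranulation term. It was chosen with earlier results of these data known and adds no independent support. It had 22 markers listed on the MMP-low side and 2 on the MMP-high side. All 22 and neither of the 2 had an adjusted p under 0.05. Of these markers, 10 were among the 99 shared genes and 0 among the 55. Detection of the 10 ranged over 55.2% to 100% of MMP-low and 0% to 100% of MMP-high cells, and 2 of them, Lgals3 and Mmp9, were at 0% in MMP-high. The sort removed lineage-positive cells, and the part of other cell types in these values was not tested.

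The 9 lymphoid genes had a median log fold of 0.50. Cd79a and Vpreb3 belong to the B-cell receptor and its precursor. Cd79a was detected in 61% of MMP-low against 0% of MMP-high cells, per the authors' deposited table, with a log fold of 0.50, and Vpreb3 in 56.2% and 0%, with 0.39. These were 2 of 26 markers of lymphoid cells, of which 7 were listed on the MMP-low side and 1 on the MMP-high side. Bach2, a repressor that shapes lymphoid fate, had the highest log fold of the group, 0.79, with detection in 66.7% and 32.8%. Cd52, Ltb, Gimap3, Ebi3, Pik3cd and Il2rg, which encode a surface glycoprotein, a cytokine, a small GTPase, a cytokine subunit, a lipid kinase and a cytokine receptor chain, completed it. For Ebi3, Pik3cd and Il2rg the authors' adjusted p was not under 0.05, as given below.

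Interferon-response genes numbered 6, with a median log fold of 0.64. Ifitm1, a membrane protein that restricts viral entry, was detected in 100% of both groups with a log fold of 0.98 in the authors' deposited table. Its relative Ifitm6 was detected in 100% of MMP-low against 31.1% of MMP-high cells, at 0.80. Irf1, a transcription factor of the interferon response, was one of 2 MMP-low genes whose detection ran against the fold, with 97.1% of MMP-low against 98.3% of MMP-high cells at a log fold of 0.74. The other was Rcn2, a calcium-binding protein of the secretory pathway, at 99% and 100% with 0.57. Both were detected in nearly every cell of either group. Iigp1, a GTPase acting against intracellular pathogens, was at 100% and 64.7% with 0.38, and Oasl2, of the oligoadenylate synthetase family, was at 100% and 86.6% with 0.53. Slfn2, which keeps lymphocytes and other immune cells quiescent, completed the group. Of 60 genes of the interferon response, NF-kB and antigen presentation, 15 stood on the MMP-low side, 11 of them with an adjusted p under 0.05, and 4 on the MMP-high side, 1 of them under 0.05.

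Genes of stem cell identity and quiescence numbered 8 on the side of MMP-low and dHSC and 0 on the other. They differed mainly in level, with median detection of 98.55% of MMP-low against 94.1% of MMP-high cells and a median log fold of 0.59. Beside Ly6a and Procr, Mllt3 was at 0.82 in the authors' deposited table, detected in 100% and 99.2%. Mllt3 encodes the chromatin reader AF9, a regulator of HSC maintenance. Ndn encodes necdin, which restrains the cell cycle, and was detected in 93.3% of MMP-low against 91.6% of MMP-high cells, at 0.51. Both were thus found in nearly all cells of either group. Zfp36, which speeds the decay of AU-rich mRNAs, was at 100% in both groups with 0.57. Sult1a1, a sulfotransferase found in HSC signatures, was at 98.1% and 96.6% with 0.60 in the authors' deposited table. Jam2, a junctional adhesion molecule, and Id2, an inhibitor of differentiation factors, departed from the rest in detection, at 71.4% and 81% of MMP-low and 32.8% and 36.1% of MMP-high cells. A fixed list of 95 stem cell and quiescence genes had 30 on the MMP-low side and 4 on the MMP-high side. With an adjusted p under 0.05 there were 23 and 2. That list also holds Ifitm1, grouped above with the interferon response, so 9 of its genes were shared by MMP-low and dHSC.

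**Figure D2:**
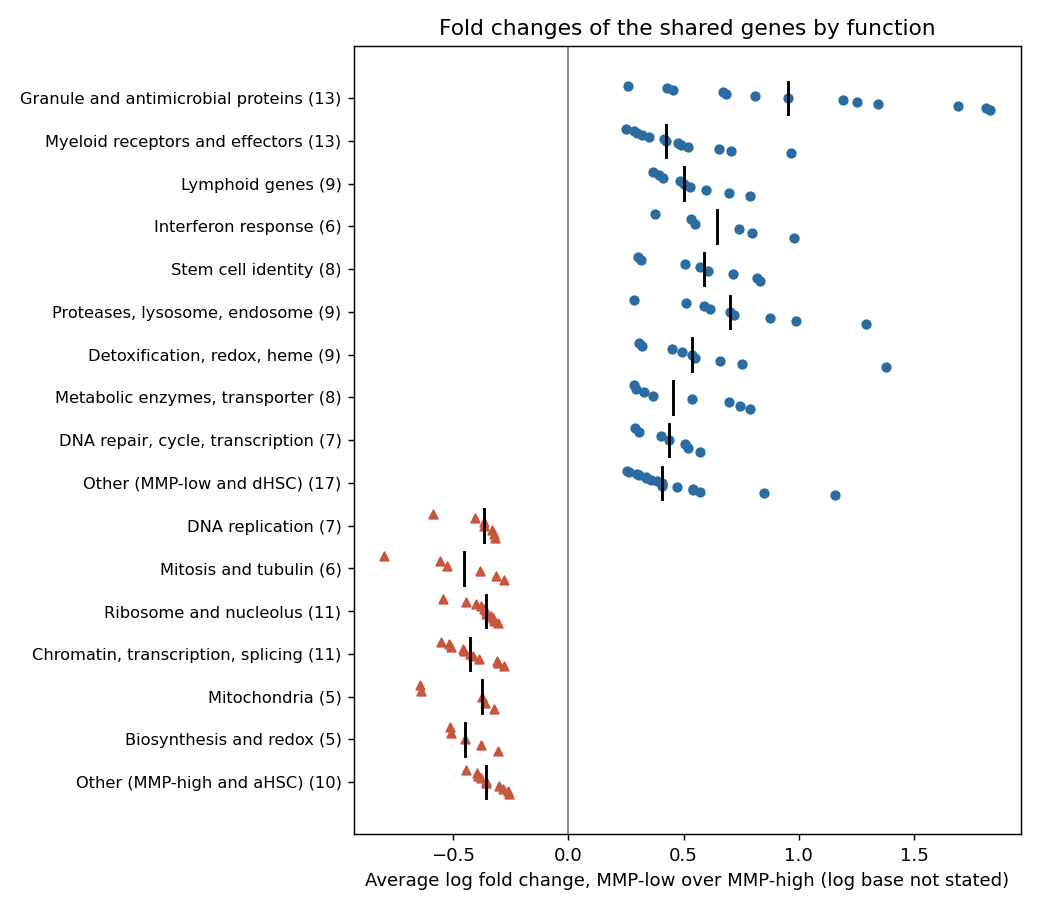
Average log fold change of MMP-low over MMP-high (horizontal axis, log base not stated) for each of the 154 shared genes, in rows by function with the number of genes in parentheses. Circles are genes shared by MMP-low and dHSC, triangles genes shared by MMP-high and aHSC, and black bars are medians of the rows. Granule genes reach 1.83 in MMP-low, and the largest value on the MMP-high side is -0.80.

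Genes of proteases, lysosomes and endosomes numbered 9, with a median log fold of 0.70. Ctse, the aspartic protease cathepsin E, was detected in 80% of MMP-low against 63% of MMP-high cells, per the authors' deposited table, at a log fold of 1.29. Lyst, which governs the size of lysosomes and granules, was at 81.9% and 52.9% with 0.99. Ctsh, Ctsa and Ctss, lysosomal cathepsins, had log folds of 0.70, 0.62 and 0.51. Pld4, an endolysosomal nuclease, and Sorl1, an endosomal sorting receptor, were each detected in 69.5% of MMP-low against 0% of MMP-high cells, per the authors' deposited table. Smpdl3a, a phosphodiesterase, was at 0.88, and Tspan14, a tetraspanin, at 0.72. Among 81 genes of lysosomes, the vacuolar ATPase and autophagy, 19 stood on the MMP-low side and 4 on the MMP-high side, and with an adjusted p under 0.05 there were 14 and 3.

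Detoxification, redox and heme genes also numbered 9. Mgst1, a membrane-bound glutathione transferase, had a log fold of 1.38 in the authors' deposited table, with detection in 100% of MMP-low against 88.2% of MMP-high cells. Gstm1, a further glutathione transferase, and Ftl1, the light chain of the iron store ferritin, were detected in 100% of both groups, at 0.75 and 0.55. Srxn1, Ephx1 and Alas1 differed more in detection. Srxn1, which repairs oxidised peroxiredoxins, was found in 74.3% of MMP-low against 15.1% of MMP-high cells, Ephx1, an epoxide hydrolase, in 76.2% and 11.8%, and Alas1, which starts heme synthesis, in 67.6% and 15.1%. Cyp2j9 and Cyp4f13 encode cytochrome P450 enzymes. Hbb-bt, an adult beta-globin gene and 1 of 20 erythroid markers, was at 71.4% and 58.8% with a log fold of 0.32. Its authors' adjusted p was 0.723. Of the erythroid markers, 3 were listed on the MMP-low side and 0 on the MMP-high side.

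Metabolic enzymes and a transporter numbered 8, with a median log fold of 0.45. Pygm, the muscle form of glycogen phosphorylase, was detected in 76.2% of MMP-low against 5.9% of MMP-high cells, per the authors' deposited table, at a log fold of 0.70. Hk3, a hexokinase, was at 74.3% and 15.1% with 0.33, and Pfkfb2, which sets the level of a glycolysis activator, at 64.8% and 9.2% with 0.29. These 3 enzymes of glycogen and sugar use stood on the side of MMP-low, whereas the authors' deposited pathway table gives glycolysis as lower in MMP-low than in MMP-high. They were picked out after their values had been seen. Nceh1, a cholesterol ester hydrolase, and Sat1, which acetylates polyamines, were at 0.79 and 0.75 with detection of at least 96.6% in both groups. Ivd, a leucine-breakdown enzyme, Btd, which recycles biotin, and Slc22a18, a transporter, completed the group.

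Not all MMP-low genes were of rest or of blood lineages. Those of DNA repair, the cell cycle and transcription numbered 7. Rad54l, a motor of homologous recombination, was detected in 69.5% of MMP-low against 25.2% of MMP-high cells, per the authors' deposited table, and Ercc6l, a helicase of mitotic chromosomes, in 77.1% and 33.6%. Ddias, an anti-apoptotic factor induced by DNA damage, was at 69.5% and 1.7%. Fzr1, the activator of the anaphase-promoting complex that holds cells in G1, was at 98.1% and 97.5% with a log fold of 0.52. Sfmbt2, a Polycomb-type protein, Aff1, a transcription elongation factor, and Zfp318, a regulator of antibody transcripts, had log folds of 0.50, 0.57 and 0.40.

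The other 17 genes fell in no larger group. BC035044 had a log fold of 1.15 in the authors' deposited table, with detection in 70.5% of MMP-low against 0% of MMP-high cells. Elmod3, a GTPase regulator, had the largest difference in detection of all 154 genes, at 80% and 5.9%. Efna1 encodes an ephrin ligand, Ecscr an endothelial surface protein, Npr2 a natriuretic peptide receptor and St8sia4 a sialyltransferase. Sgsm1 and Tbc1d8 are of families that regulate small GTPases, and Sgsm1 was at 68.6% and 0% in the authors' deposited table. Endod1, at 0.25, lay near the smallest log fold listed, and Tcp11l2 was at 0.85. Kazald1, Arl6ip5, Tmem154, Ankrd44, Mettl7a1 and 9930111J21Rik2 had log folds from 0.36 to 0.54.

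**Figure D3:**
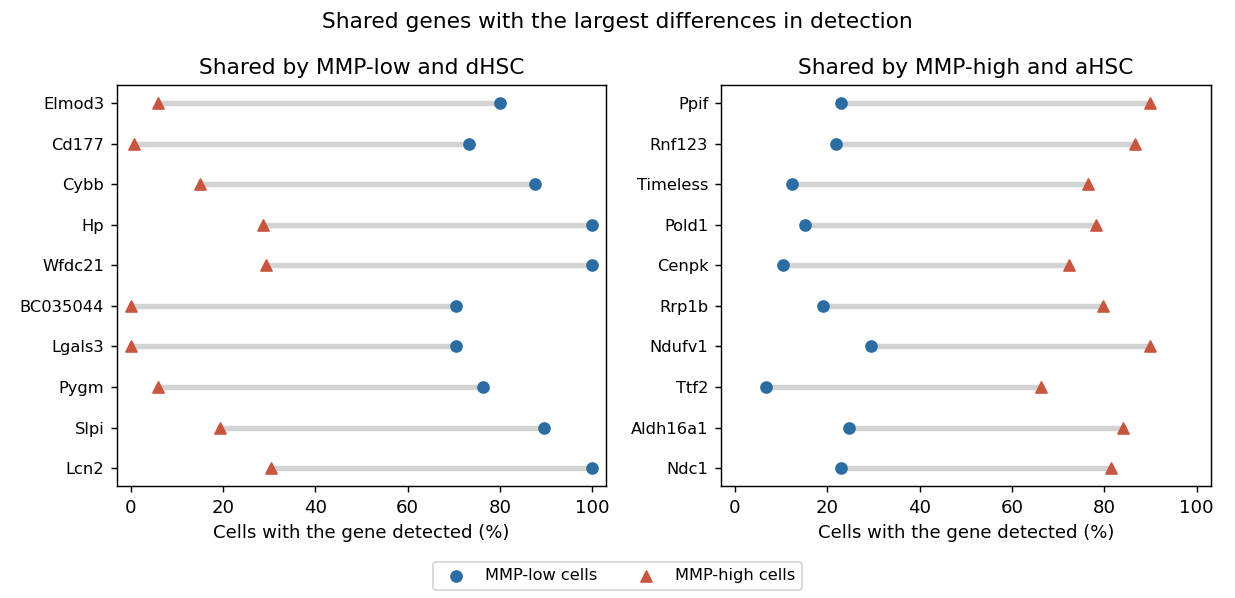
Detection (horizontal axis, % of cells) in MMP-low cells (circles) and MMP-high cells (triangles) of the 10 genes with the largest difference in each column, from the authors' deposited table. The left panel holds genes shared by MMP-low and dHSC, led by Elmod3 at 80% and 5.9%, and the right panel genes shared by MMP-high and aHSC, led by Ppif at 22.9% and 89.9%.

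On the side of MMP-high and aHSC, 13 genes act in DNA replication or in mitosis and tubulin handling, 7 and 6 of them. The replication genes had a median log fold of -0.36 and median detection in 63.8% of MMP-low against 97.5% of MMP-high cells. Tyms, which makes the DNA precursor thymidylate, was detected in 76.2% of MMP-low against 100% of MMP-high cells, per the authors' deposited table, at -0.58. Timeless, a protein of the replication fork, was at 12.4% and 76.5%, and Pold1, the catalytic subunit of DNA polymerase delta, was at 15.2% and 78.2%, with log folds of -0.36 and -0.37. These were the widest gaps in detection among the replication genes. Lig1, the ligase that joins Okazaki fragments, was at 67.6% and 99.2% with -0.41 in the authors' deposited table. Rfc4, a subunit of the clamp loader, was at 59% and 100% with -0.32. Rrm1, the large subunit of ribonucleotide reductase, was at 63.8% and 95% with -0.32. These genes were found in most MMP-low cells and nearly all MMP-high cells. Mcm2, a subunit of the replicative helicase, was at 73.3% and 97.5% with -0.33 and an authors' adjusted p of 0.169. All 7 were detected in more MMP-high than MMP-low cells.

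Among the mitosis genes, Stmn1, which takes apart microtubules, had the largest fold of all 55 genes, -0.80 in the authors' deposited table, while being detected in 100% of both groups. Cdk1, the kinase that drives entry into mitosis, was detected in 45.7% of MMP-low against 92.4% of MMP-high cells, at -0.56. Its partner Cks1b was at 94.3% and 100% with -0.53. Of these 3, Cdk1 alone was found in under 50% of MMP-low cells. Cenpk, a protein of the kinetochore, was at 10.5% and 72.3% with -0.31. Cep78, a centrosomal protein, was at 13.3% and 68.1%, and Tbcc, a tubulin folding cofactor, at 27.6% and 78.2%. Of 77 genes of G1/S and DNA replication, 0 stood on the MMP-low side and 33 on the MMP-high side, 22 of these with an adjusted p under 0.05. Of 97 genes of G2/M and mitosis, 1 stood on the MMP-low side, not under 0.05, and 28 on the MMP-high side, 16 of these under 0.05.

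The authors' deposited table of transcription factor terms for genes higher in MMP-high includes targets of E2F factors, which switch on replication genes, and of NF-Y, which binds CCAAT letters in promoters. The term E2F4_ENCODE held 20 of the 55 shared genes (36.4%) and 131 of the 919 listed genes (14.3%), among them all 7 replication genes and Cdk1. NFYB_ENCODE held 23 of the 55 (41.8%) and 281 of the 919 (30.6%), and MYC_ENCODE 18 (32.7%) and 218 (23.7%). RefSeq promoters of the build GRCm38.p6, from 250 bases before to 50 bases after a gene's start, were matched to 82 of the 99 and 49 of the 55 genes. They are shown for 4 of the genes in those terms, 5′ to 3′ along the gene's strand. The capitals mark an E2F motif, GCGGGAA on either strand, in Pold1, Rrm1 and Rfc4. In Cdk1 they mark CCAAT and TTTGAA, the CHR motif of mitotic genes, on either strand. Other letters searched are left unmarked, such as CCAAT in Rrm1 and GTGGGCG in Pold1. GCGGGAA was not found in the windows of the other replication genes, Timeless, Lig1, Mcm2 and Tyms.
Pold1, chr7:44548766-44549065, minus strand: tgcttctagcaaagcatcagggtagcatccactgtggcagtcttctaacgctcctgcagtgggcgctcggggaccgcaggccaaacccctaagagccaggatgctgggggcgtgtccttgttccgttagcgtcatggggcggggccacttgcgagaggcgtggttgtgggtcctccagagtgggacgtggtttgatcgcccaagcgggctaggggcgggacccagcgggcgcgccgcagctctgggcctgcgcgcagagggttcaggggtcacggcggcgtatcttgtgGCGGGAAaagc
Rrm1, chr7:102441445-102441744, plus strand: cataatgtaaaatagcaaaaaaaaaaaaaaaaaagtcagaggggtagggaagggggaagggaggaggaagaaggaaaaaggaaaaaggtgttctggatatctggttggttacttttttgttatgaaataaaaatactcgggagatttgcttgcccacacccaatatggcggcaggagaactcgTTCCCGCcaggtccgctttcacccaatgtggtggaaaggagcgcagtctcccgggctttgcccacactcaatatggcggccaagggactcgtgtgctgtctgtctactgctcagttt
Rfc4, chr16:23127681-23127980, minus strand: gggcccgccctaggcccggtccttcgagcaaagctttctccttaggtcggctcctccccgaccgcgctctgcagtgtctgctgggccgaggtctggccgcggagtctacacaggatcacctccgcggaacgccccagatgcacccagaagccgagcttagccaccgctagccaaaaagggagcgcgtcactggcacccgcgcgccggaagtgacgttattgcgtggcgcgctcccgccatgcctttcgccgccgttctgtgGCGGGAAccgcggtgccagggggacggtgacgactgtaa
Cdk1, chr10:69352863-69353162, minus strand: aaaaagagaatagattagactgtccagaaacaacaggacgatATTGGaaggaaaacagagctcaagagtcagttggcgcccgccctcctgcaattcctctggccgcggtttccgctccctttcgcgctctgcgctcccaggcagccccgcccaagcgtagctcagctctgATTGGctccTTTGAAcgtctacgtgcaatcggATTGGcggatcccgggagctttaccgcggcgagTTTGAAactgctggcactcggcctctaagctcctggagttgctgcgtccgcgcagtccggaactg

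The letters GCGGGAA occurred in the windows of 1 of 82 genes shared by MMP-low and dHSC (1.22%), of 7 of 49 genes shared by MMP-high and aHSC (14.3%), and of 4.66% of 27025 promoters of the same length. The MMP-low gene was Rcn2, and the 7 MMP-high genes were Rfc4, Pold1, Rrm1, Tbcc, Actn4, Ppat and Txn1. CCAAT occurred in 36.6% of the MMP-low, 46.9% of the MMP-high and 37.9% of all promoters, and TTTGAA in 10.98%, 18.4% and 18.1%. In the Cdk1 promoter CCAAT matched at 3 places and TTTGAA at 2. In the same order, an E-box, CACGTG, was in 6.10%, 8.16% and 7.24%, and a cAMP response element, TGACGTC, in 1.22%, 8.16% and 3.33%. An EGR motif, GTGGGCG, was in 7.32%, 24.5% and 8.04%, and an AP-1 motif, TGACTCA, in 4.88%, 2.04% and 5.17%. The CHR variant TTCGAA was in 1.22%, 0% and 1.57%. Both strands were searched, and no matches of different motifs shared bases in these promoters. These are matches of letters, with no measurement of binding.

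Ribosome production and translation contributed 11 genes to the side of MMP-high and aHSC, with a median log fold of -0.36. Myc, the transcription factor that drives growth and ribosome genes, was detected in 90.5% of MMP-low against 100% of MMP-high cells, per the authors' deposited table, at -0.44. Noc2l, Bop1 and Rrp1b are nucleolar proteins of ribosome assembly. Noc2l was detected in 56.2% of MMP-low against 100% of MMP-high cells, Bop1 in 39% and 79.8%, and Rrp1b in 19% and 79.8%, at -0.36, -0.38 and -0.37. Rrs1 and Pdcd11, which act in the same process, were at 42.9% and 41% of MMP-low and 95% each of MMP-high cells, per the authors' deposited table. Rpl12, Rps4x and Rps27l, which encode ribosomal proteins and a close relative of one, were in 100% of both groups, at -0.33, -0.33 and -0.31. Serbp1, an mRNA- and ribosome-binding protein, and Gas5, a noncoding host of small nucleolar RNAs, were also in 100% of both, at -0.54 and -0.40. A fixed list of ribosome biogenesis and translation genes had 7 on the MMP-low side, 2 of them with an adjusted p under 0.05, and 27 on the MMP-high side, 18 of them under 0.05.

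Chromatin, transcription and splicing gave a further 11 genes, with a median log fold of -0.43. H2az1, given in the files under its older symbol H2afz, encodes a histone variant of active promoters and was in 100% of both groups at -0.52 in the authors' deposited table. Its chaperone Anp32e was in 47.6% and 98.3%, at -0.46. Smarcc1, a core subunit of the SWI/SNF remodeller, was in 88.6% and 100%, at -0.51. Histone and remodelling genes thus ranged from detection in all cells to detection in a minority of MMP-low cells. Ttf2 was at 6.7% and 66.4% with a log fold of -0.28 in the authors' deposited table. Ptma, an abundant nuclear protein that loosens chromatin, was in 100% of both groups at -0.45, and Prmt5, an arginine methyltransferase of histones and splicing proteins, in 47.6% and 84% at -0.43. Snrpd3 and Snrpe, which form the ring of spliceosomal particles, were at -0.41 and -0.39. Runx3, a transcription factor of blood lineages, and Ssbp4, a DNA-binding cofactor, were at -0.31 each. Of 61 genes of RNA splicing and export, 0 stood on the MMP-low side and 23 on the MMP-high side, 17 of these with an adjusted p under 0.05.

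Mitochondrial genes numbered 5, with median detection in 41.9% of MMP-low against 99.2% of MMP-high cells. Ndufv1, a core subunit of complex I, which takes electrons from NADH, was detected in 29.5% of MMP-low against 89.9% of MMP-high cells, per the authors' deposited table, at -0.64. Oxct1, which starts the use of ketone bodies, was at 86.7% and 99.2% with -0.64. Ppif, the cyclophilin that opens the permeability transition pore, had the largest difference in detection of the 55 genes, at 22.9% and 89.9%. Oxct1 was thus detected in most cells of both groups, and Ndufv1 and Ppif in a minority of MMP-low cells. Shmt2, of mitochondrial one-carbon metabolism, was at 41.9% and 99.2% with -0.37 in the authors' deposited table. Timm50, of the protein import machinery, was at 81% and 99.2% with -0.36. Among 147 genes of mitochondria and energy metabolism, 4 stood on the MMP-low side, 0 of them with an adjusted p under 0.05, and 32 on the MMP-high side, 17 of them under 0.05.

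Biosynthesis and redox genes numbered 5. Por, which passes electrons to P450 enzymes, was detected in 45.7% of MMP-low against 88.2% of MMP-high cells, per the authors' deposited table, at -0.51. Psat1, of serine synthesis, was at 57.1% and 92.4% with -0.51, and Ppat, the first enzyme of purine synthesis, at 70.5% and 96.6% with -0.30. Isyna1 makes inositol and was at -0.45, and Txn1 is the reducing protein thioredoxin, at -0.38. Among 35 genes of nucleotide and one-carbon synthesis, 1 stood on the MMP-low side, not under an adjusted p of 0.05, and 13 on the MMP-high side, 9 of them under it. The other 10 genes included Mif, a cytokine, at -0.44 with 100% in both groups, and Actn4, an actin crosslinker, at -0.38. Rnf123, a ubiquitin ligase, was at 21.9% and 86.6%, Aldh16a1, of the aldehyde dehydrogenase family, at 24.8% and 84%, and Ndc1, of the nuclear pore, at 22.9% and 81.5% in the authors' deposited table. Pip5k1c, a lipid kinase, Blmh, a hydrolase, Rbck1, of a ubiquitin ligase complex, Ppp2r3c, a phosphatase subunit, and Plekhj1 ranged from -0.26 to -0.40.

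A few shared genes have near-identical relatives that the authors' counting could have split or mixed, so that their values are uncertain. Among them are Hbb-bt, Lyz2, Ifitm1 and Ifitm6, Gstm1, the 2 P450 genes and the ribosomal protein genes. The other fixed lists touched few shared genes. Immediate early and stress genes gave Zfp36 on the MMP-low and Myc on the MMP-high side, with 17 of 47 listed on the MMP-low side and 1 on the MMP-high side. Proteasome and chaperone genes, with 1 and 22 of 56, and genes of membrane traffic, adhesion and the cytoskeleton, with 14 and 2 of 74, gave 0 shared genes. With an adjusted p under 0.05, the immediate early and stress list had 10 on the MMP-low and 1 on the MMP-high side. In the same order, the proteasome and chaperone list had 0 and 7, and the membrane traffic list 5 and 1. Endothelial and stromal markers were listed on neither side, 0 of 18.

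The authors' 5 clusters, A to E, were made from the same cells, so the place of the shared genes in them is a description. Of the 99 genes shared by MMP-low and dHSC, 68 were listed as higher in cluster A (68.7%), 54 in B (54.5%) and 4 in C (4.04%), with 0 in D and 0 in E, in the authors' deposited table. In both A and B were 33. Of the 55 genes shared by MMP-high and aHSC, 0 were in A or B, 13 in C (23.6%), 18 in D (32.7%) and 16 in E (29.1%). Of all 949 genes on the MMP-low side, 58.6%, 42.9% and 6.32% were in A, B and C, and of all 919 on the MMP-high side, 13.2%, 30.4% and 24.3% were in C, D and E. Over all genes tested, 5.27% were listed in A, 4.16% in B, 5.12% in C, 3.23% in D and 2.80% in E. In no cluster were 8 of the 99 and 17 of the 55 genes. Counting only cluster entries with the authors' adjusted p under 0.05, 65 of the 99 were in A, 29 in B and 1 in C, and 8 of the 55 were in C, 12 in D and 5 in E. The count in A stayed close to that of all entries, and those in B, C, D and E were lower by 1.5 times or more.

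Cluster B listed all granule genes but Lyz2, which was in A, and cluster A listed all stem cell genes but Id2. The authors' adjusted p of the entry in B was not under 0.05 for Wfdc21 at 0.055, Hp at 0.18, Slpi at 0.42 and Pglyrp1 at 1, nor was that of the entry in A for Ndn, Zfp36 and Sult1a1. In the authors' deposited table Camp was detected in 100% of cluster B and 67.3% of the other cells, with a log fold of 1.96, and Ngp in 100% and 58.7%, with 1.77. BC035044 was in 100% of B and 23.5% of the other cells, with 1.67. In cluster A, Mgst1 was highest at 1.35, and Pygm was detected in 100% of A and 23.5% of the other cells. Of the granule genes in B, Lgals3 and Cd177 were also in A. There Lgals3 was detected in 100% of A and 16.2% of the other cells, and Cd177 in 100% and 18.4%. Of the stem cell genes in A, Sult1a1 was also in C and Jam2 also in B. Cluster C held Noc2l, at 98.5% and 71.2% with 0.52 in the authors' deposited table, and Mcm2, at 98.5% and 80.8% with 0.45. In cluster D, Ndufv1 was detected in 100% of D and 50.3% of the other cells, with 0.51, and Timeless in 100% and 30.6%. In cluster E, Pold1 was in 100% and 40.1%, with 0.57, and Ttf2 in 100% and 28.1%, with 0.56. The 4 MMP-low genes in cluster C were Efna1, Oasl2, Sult1a1 and Iigp1.

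**Figure D4:**
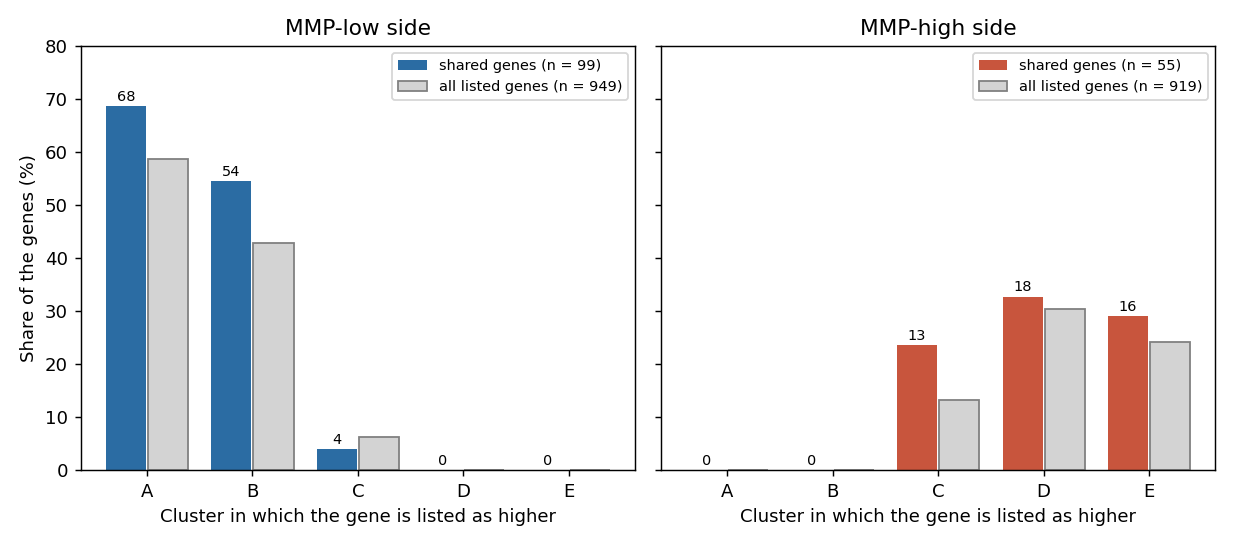
Share of genes (vertical axis, %) that the authors' deposited table lists as higher in each cluster A to E (horizontal axis), for the MMP-low side (left) and the MMP-high side (right). Coloured bars are the 99 and 55 shared genes, with their counts above, and grey bars are all 949 and 919 listed genes. Shared MMP-low genes lie in A, B and C, and shared MMP-high genes in C, D and E.

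The authors' deposited table of overlaps gives larger overlaps on the matching sides, MMP-low with dHSC and MMP-high with aHSC. It counts 690 dHSC, 333 aHSC, 465 MMP-low and 459 MMP-high genes, with a stated fold over 1.5 and p under 0.05. Shared by dHSC and MMP-low were 66 genes, 9.57% of the dHSC and 14.2% of the MMP-low list, and shared by dHSC and MMP-high were 10, 1.45% and 2.18%. Shared by aHSC and MMP-low were 4 genes, 1.20% of the aHSC and 0.86% of the MMP-low list, and shared by aHSC and MMP-high were 18, 5.41% and 3.92%. On matching sides were thus 84 of 98 overlaps. The authors' deposited table adds their Pearson chi-square p of 3.4e-10, which treats genes as independent.

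**Figure D5:**
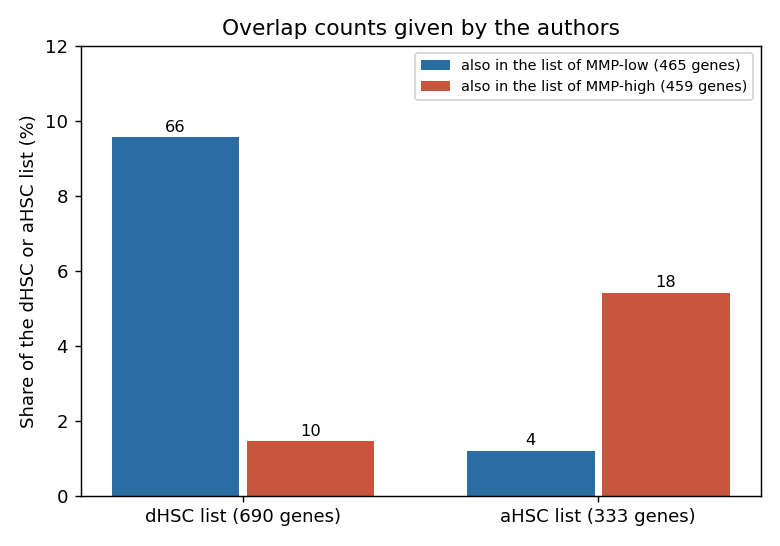
Share of the authors' dHSC list (left, 690 genes) and aHSC list (right, 333 genes) that is also in their MMP-low or MMP-high list (vertical axis, %), with the number of genes above each bar, from the authors' deposited table. The dHSC list shares 66 genes with MMP-low and 10 with MMP-high, and the aHSC list 4 and 18.

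These overlap counts and the columns of shared genes rest on different lists. The columns hold 99 and 55 genes, more than the 66 and 18 counted. At a fold of 1.5 and p under 0.05, the authors' deposited MMP table gives 349 MMP-low and 202 MMP-high genes if its folds are natural logs, 70 and 20 of them shared. These are 36.8% of the 949 and 22% of the 919 listed genes. If the folds are log2, the rule leaves 12.2% and 2.72% of the listed genes, 38 and 3 of them shared, and if they are log10 it leaves all 949 and 919, with all 99 and 55 shared. None of the 3 bases gives 465 and 459. The heading of the columns names an adjusted p under 0.05, which 92 of the 99 and 52 of the 55 genes met in the authors' deposited MMP table. The 7 others on the MMP-low side were Ebi3 at 0.0653, Pik3cd at 0.0727, Cyp4f13 at 0.0969, Tspan14 at 0.123, Cd200r1 at 0.406, Hbb-bt at 0.723 and Il2rg at 1, and the 3 on the MMP-high side were Ppat at 0.153, Mcm2 at 0.169 and Blmh at 1. Just inside lay Rbck1 at 0.0434 and, on the MMP-low side, Gimap3 at 0.00645.

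The authors' deposited table of terms for the shared genes carries headings that run against the gene columns. Under MMP-low with dHSC it has 7 terms, 2 on mRNA processing and ribonucleoprotein biogenesis and 4 on acylation or acetylation. Under MMP-high with aHSC it has 39 terms, of which 14 name leukocytes, myeloid cells, neutrophils or granulocytes, 10 name migration or movement and 5 name blood vessels. Yet Camp, Cd177, Cybb and the other granule and myeloid genes stand in the MMP-low column, and Myc, Bop1, Snrpd3 and Snrpe in the MMP-high column. No source used here says which of the tables has the intended heading.

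All 8 pathways of the authors' deposited pathway table have the same directions, lower in MMP-low than in MMP-high and lower in dHSC than in aHSC. They are the electron transport chain, oxidative phosphorylation, the TCA cycle, glycolysis, purine metabolism, transcription initiation, mRNA processing and translation factors. A further table that the authors deposited gives their Kruskal-Wallis chi-square over the 5 clusters, with 4 degrees of freedom, from 77.8 for oxidative phosphorylation to 138 for mRNA processing. The clusters were made from the same cells, so these values describe the clusters and give no independent support. They do not compare MMP-low with MMP-high or dHSC with aHSC. Shared genes on the side of MMP-high and aHSC with a role in these pathways include Ndufv1 of the electron transport chain, Ppat of purine synthesis, and Snrpd3 and Snrpe of mRNA processing. The pathway table gives a direction per pathway and no size for either comparison.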

How the data were processed

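Single HSCs were captured on a Fluidigm C1 chip and turned into sequencing libraries with the SMART-Seq v4 and Nextera XT kits, according to the labels' protocols, without molecular identifiers. STAR 2.5.2b, bcl2fastq 2.17.1.14 and the build mm10 are named in the submitters' processing notes. For annotation, normalization and the rule for detection, nothing is stated in the sources used. Counts of reads and detected genes per library are the authors' values, per the file headers. Detection was deposited as a fraction of cells and turned into percent. The authors' deposited average log fold was handled as a score, because its base is not stated. The deposited adjusted p-value is 16203 times the deposited p-value, so 16203 was taken as the number of genes tested. The deposited term and pathway tables were used as given.

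Both columns of shared genes were looked up by symbol in the authors' MMP and cluster tables, with 153 symbols matched directly in RefSeq and 1 by synonym. The lookup was tested on simulated data, and tables were handled in Python 3.11.15 with pandas 2.3.3 and figures drawn with matplotlib 3.10.9. No test was run, as each group was 1 sample and the genes were chosen on the contrast described. Where a count uses an adjusted p, it is the authors', from a model fitted to single cells. The members, the 17 fixed gene lists, the motifs and the comparisons were chosen with earlier results of these data known, and 1 list and the values of 1 shared gene are not reported here. Genes given with values were, in each column, the 10 of largest fold, the 10 of largest difference in detection, those in a fixed list and the 3 nearest the smallest fold listed. Values of other genes complete the function groups and were chosen after they were seen. Promoters were searched in the first RefSeq window of a gene. Alternatives were a limit on adjusted p or fold, leaving out genes found in 1% or less of the opposite group or markers of other cell types, matching symbols through synonyms, and subsets of libraries. Chosen after seeing the data were the libraries of 300000 to 600000 mapped reads and the median detection without markers of other cell types.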

Additional observations from a re-analysis of the deposited data

How the results depend on the processing

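Limiting the shared genes to an absolute log fold of at least 0.5 left 55 of 99 on the MMP-low and 12 of 55 on the MMP-high side. With an adjusted p under 0.05 there were 92 and 52, without those found in 1% or less of the opposite group 84 and 55, and without markers of other cell types 86 and 55. Matching symbols through synonyms gave 99 and 55. Of the 91 MMP-low genes in the cluster table, 76 had a cluster entry with an adjusted p under 0.05 and 49 one with a log fold of at least 0.5; of the 38 MMP-high genes, 22 and 4. The median difference in detection, MMP-low minus MMP-high, lay between 32.6 and 44.55 percentage points for the MMP-low genes and between -39.65 and -36.4 for the MMP-high genes. The median number of genes per library differed by -1479 over all libraries, by -1580 up to number 85, by 178 above 85, where the order turned, and by -618 among libraries of 300000 to 600000 mapped reads. The cause was not tested. Depth may limit these values through detection, but the rule for detection is not stated, and the part of depth was not tested. No paired analysis was possible because the gene tables hold no samples and the library numbers name separate cells. Leaving out replicates was not run for the same reason.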
